A study of Homo sapiens with 9 samples.

Results

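Definitive endoderm derived from human embryonic stem cells that carry a heterozygous deletion of CHD7 (CHD7+/-) was compared with endoderm from cells carrying both copies of the gene (CHD7+/+). The comparison uses 6 of the 9 libraries of the series, 3 for each genotype, taken by the genotype written in the labels and not by any measured value. The remaining 3 libraries are homozygous for the deletion (CHD7-/-), entered the same statistical fit, and are quoted beside a heterozygous result only where they bear on it. All cells derive from H9, an established human embryonic stem cell line kept undifferentiated on Matrigel in mTeSR Plus, and the deletions were made with CRISPR/Cas9. The labels give neither the deleted interval nor the number of clones behind each genotype, and they name no separate cultures. Differences between clones and differences between genotypes therefore cannot be told apart. A p-value here sets the difference between genotypes against the spread of libraries within genotypes, estimated over all 9 libraries. That spread may be technical.

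CHD7 encodes a chromatin remodeller of the chromodomain helicase DNA-binding family, which uses ATP to move nucleosomes and binds mainly at active enhancers. Loss of a single working copy causes CHARGE syndrome, in which the eye, heart, choanae, growth, genitals and ear develop abnormally, often with loss of the sense of smell. Definitive endoderm is the germ layer that forms the lining of the gut and respiratory tract, liver and pancreas. It arises in culture when stem cells pass through a primitive streak-like state under Nodal or Activin signals and switch on SOX17, FOXA2, GATA6 and CXCR4.

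Levels are given in CPM, the count of a gene relative to the total of its library after scaling between libraries, in the order of replicates 1, 2 and 3, and positions are on GRCh38. The wild-type libraries held 24781297 to 37519729 counts over annotated genes and the heterozygous libraries 23488722 to 30581464. Fold changes are log2 values of heterozygous over wild type, followed by ± their standard error (SE), and a gene was called when its adjusted p-value in edgeR's quasi-likelihood test (Benjamini-Hochberg) was below 0.05. Libraries of 1 genotype differed by more than counting error in every pairing, with a chi-square per degree of freedom of 2.55 to 9.32 for wild-type pairs, 7.32 for heterozygous replicates 1 and 2, and up to 25.9 for pairs with heterozygous replicate 3.

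CHD7 itself (ENSG00000171316, GRCh38 chromosome 8, 60678778 to 60868028, plus strand) stood at 195, 195 and 189.2 CPM in the wild-type libraries and at 110.4, 131 and 129 in the heterozygous libraries. Every heterozygous library lay below every wild-type library, and the 3 homozygous libraries lay lower again, at 56.1, 43.0 and 55.5. Heterozygous cells kept 0.639 of the wild-type level (log2 −0.65 ± 0.10, adjusted p = 0.00579, 95% confidence interval −0.87 to −0.42). Heterozygous exceeded homozygous CHD7 by 1.26 on the log2 scale (SE 0.11, adjusted p = 3.53e-05). The order of the genotypes fits the labels, although whole-gene counts do not show which exons were removed.

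Across the transcriptome, few genes were called between heterozygous and wild-type libraries. Of 16837 genes tested, 313 (1.86%) were called, 138 higher (0.82%) and 175 lower (1.04%) in heterozygous cells. Before adjustment, 2274 genes had a p-value below 0.05 in the same test, so a gene that was not called may still differ. Of the called genes 151 changed by less than 1 on the log2 scale, 90 by 1 to 2 and 72 by more than 2. The median over all tested genes was 0.00. Scaling between libraries holds this median near 0, so a shift of most genes together could not show. Protein-coding genes made up 243 of the calls. In each of the 313 the heterozygous and wild-type libraries did not overlap, a property that 22.2% of all tested genes had. Against a minimum change of 1.5-fold, 89 genes passed (0.529%), 40 higher and 49 lower. The count depends on single libraries: leaving out wild-type replicate 3 gave 130 and wild-type replicate 2 gave 135, heterozygous replicate 2 gave 147 and heterozygous replicate 1 gave 173. It reached 624 when homozygous replicate 3 was left out, a library outside the comparison that shares the estimate of spread. In all 9 fits that each left out 1 library, 121 of the 313 genes were called, 50 higher and 71 lower. These 121 are referred to below as stable calls.

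**Figure D1:**
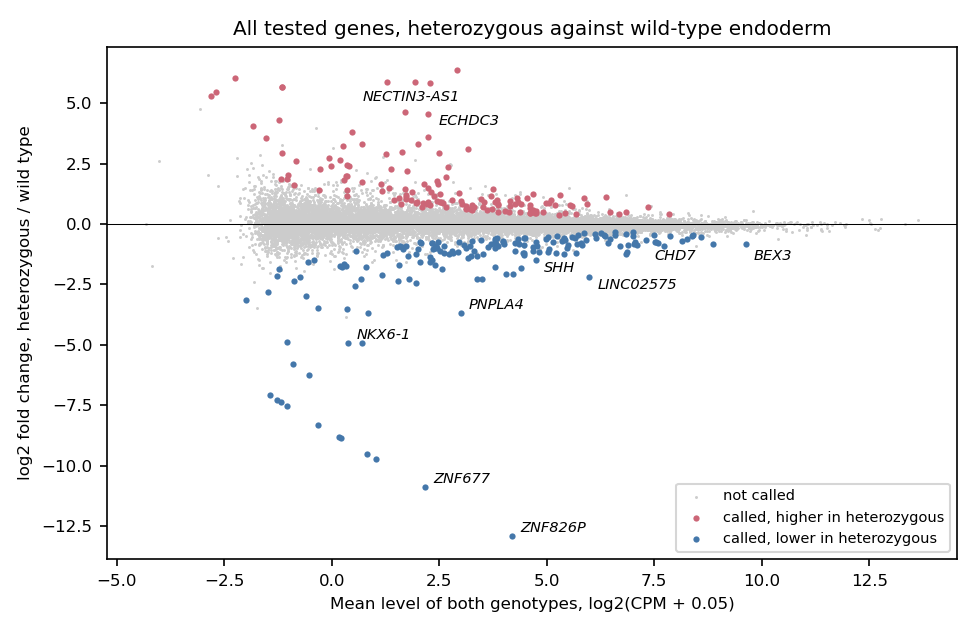
Each point is 1 of the 16837 tested genes, with its mean level over the 6 libraries on the horizontal axis (log2 of CPM + 0.05) and its log2 fold change, heterozygous over wild type, on the vertical axis. Red points are the 138 genes called higher and blue points the 175 called lower; the genes furthest from 0 have low to moderate levels, and ZNF677 and ZNF826P at the lower edge had no count in any heterozygous library, so that their fitted value is no measured fold.

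The endoderm label held in both genotypes. All 28 genes of a definitive endoderm list were detected, with a summed level of 25822, 23268 and 23532 CPM in wild-type and 22822, 22952 and 22502 CPM in heterozygous libraries. Genes at high levels, such as CER1 below, weigh most in this sum. Gene by gene, all heterozygous libraries lay below all wild-type ones in 8 of the 28 and above them in 5, against 11.1% of tested genes each way. SOX17, a defining endoderm transcription factor, had 702, 716 and 732 CPM in wild-type and 667, 627 and 562 CPM in heterozygous libraries. The heterozygous values all lay below the wild-type ones by a small margin, which did not pass the test (log2 −0.21 ± 0.08, adjusted p = 0.279, interval −0.39 to −0.03). CER1, a secreted Nodal and Wnt inhibitor, had 7706, 7022 and 7007 against 5465, 6124 and 6784 CPM (log2 −0.24 ± 0.11, adjusted p = 0.346). The other defining genes gave log2 fold changes of −0.26 for FOXA2 (adjusted p = 0.239), −0.23 for GATA4 (0.592), −0.13 for GATA6 (0.487), −0.09 for the chemokine receptor CXCR4 (0.726) and −0.01 for HHEX (0.989). None of these was called, and the 95% intervals were −0.46 to −0.05 for FOXA2, −0.58 to 0.12 for GATA4, −0.30 to 0.03 for GATA6, −0.28 to 0.10 for CXCR4 and −0.21 to 0.20 for HHEX.

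The list still held 3 called genes, 2 higher and 1 lower, against 0.82% and 1.04% of all tested genes; its median was −0.07 against 0.00 for all genes. FOXA1, a pioneer factor that opens endodermal enhancers (GRCh38 chromosome 14, 37589984 to 37596059, minus strand), had 26.3, 16.9 and 18.8 CPM in wild-type and 10.9, 13.3 and 10.7 CPM in heterozygous libraries. The groups did not overlap and FOXA1 fell (log2 −0.83 ± 0.17, adjusted p = 0.0266), while homozygous libraries had 2.26, 2.78 and 2.99 CPM; the heterozygous level exceeded the homozygous one by 2.10 (adjusted p = 7.73e-05). The FOXA1 call was lost without wild-type replicate 1 or 3 or any heterozygous library, with an adjusted p of up to 0.113. CD177, a surface protein that has been used to sort endoderm, was higher, at 37.1, 37.2 and 63.1 against 25.8, 21.4 and 20.9 CPM (log2 1.01 ± 0.21, adjusted p = 0.0312), and heterozygous replicate 3 stood well above the other two. APOA2, an apolipoprotein of high-density lipoprotein, was also higher, at 24.3, 21.3 and 28.3 against 16.4, 12.8 and 12.7 CPM (log2 0.81 ± 0.18, adjusted p = 0.0386), and was the 1 called of 17 primitive and visceral endoderm genes. Both of these calls were likewise lost when 1 of several libraries was left out (adjusted p up to 0.166 and 0.205). In bulk RNA, fewer cells of a type and less RNA per cell cannot be told apart, here or in any result that follows.

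SHH, the hedgehog ligand made by gut endoderm, was singled out after its values were seen. Its level (GRCh38 chromosome 7, 155799986 to 155812273, minus strand) was 36.0, 41.0 and 41.6 CPM in wild-type and 15.8, 14.6 and 12.1 CPM in heterozygous libraries. The highest heterozygous library stood well under the lowest wild-type library, and SHH fell (log2 −1.48 ± 0.21, adjusted p = 0.00222), a stable call; homozygous libraries had 5.85, 7.42 and 13.3 CPM. CPS1, the mitochondrial enzyme that starts the urea cycle and a marker of liver and intestine, was chosen the same way. It rose from 14.5, 14.7 and 15.9 to 31.2, 30.9 and 31.5 CPM (log2 1.06 ± 0.09, adjusted p = 2.41e-05), with narrow spread in both groups, and reached 67.8, 59.7 and 61.4 CPM in homozygous libraries. NKX6-1, a pancreatic and neural transcription factor and the single called member of the 9 tested in a list of foregut, liver and pancreas genes, fell from 1.82, 2.75 and 2.66 to 0, 0.037 and 0.212 CPM (log2 −4.92 ± 0.67, adjusted p = 0.00146).

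**Figure D2:**
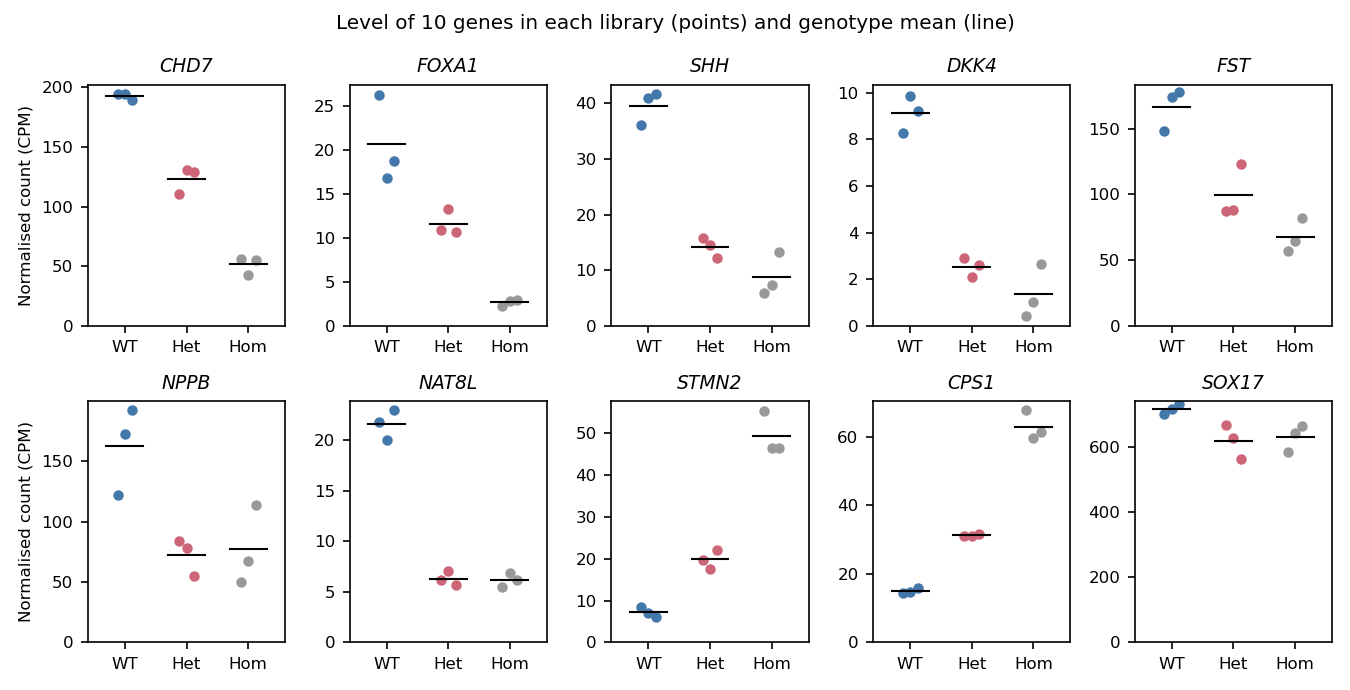
Levels of 10 genes in CPM (vertical axes, linear, each from 0) in the 9 libraries by genotype, with each point 1 library and each line the mean of 3. CHD7, FOXA1, SHH, DKK4, FST, NPPB and NAT8L were lower in all 3 heterozygous than in all 3 wild-type libraries, and STMN2 and CPS1 were higher in all 3. SOX17 was also lower in all 3 heterozygous libraries, by a small margin (562 to 667 against 702 to 732 CPM), and was not called.

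Signalling lists gave few calls each, where 1.86% of all tested genes were called. DKK4, a secreted Wnt inhibitor and itself a Wnt target, was the 1 called gene of 36 tested in a Wnt list (median −0.04). It had 8.26, 9.87 and 9.22 CPM in wild-type and 2.90, 2.08 and 2.63 CPM in heterozygous libraries, with no overlap (log2 −1.84 ± 0.33, adjusted p = 0.0110), and 0.418, 1.03 and 2.64 CPM in homozygous libraries. FST, follistatin, which binds Activin, was the 1 called of 21 genes in a Nodal and Activin list (median −0.04), with 148, 174 and 178 against 87.4, 88.0 and 123 CPM (log2 −0.74 ± 0.15, adjusted p = 0.0253). Both encode secreted antagonists and both fell, but each call was lost without wild-type replicate 2 or 3 or heterozygous replicate 2, and that of FST also without heterozygous replicate 1 (adjusted p up to 0.0982 for DKK4 and 0.165 for FST).

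Of 25 FGF pathway genes, 2 were called, both lower, against 1.04% of all tested genes called lower, and the list's median was −0.18. FGFR3, a receptor, had 41.9, 45.5 and 43.5 CPM in wild-type and 32.2, 33.1 and 28.4 CPM in heterozygous libraries (log2 −0.48 ± 0.10, adjusted p = 0.0355). DUSP4, a phosphatase induced by the pathway that switches off ERK, had 421, 486 and 469 against 300.3, 322 and 321 CPM (log2 −0.55 ± 0.12, adjusted p = 0.0362). The FGFR3 call was lost without any 1 of the 6 libraries compared and that of DUSP4 without 1 of several libraries (adjusted p up to 0.206 and 0.199). In 11 of the 25 genes all heterozygous libraries lay below all wild-type libraries and in none above, against 11.1% of all tested genes in either direction. SPRY2, a feedback inhibitor, had 116, 119 and 112 against 92.9, 92.8 and 77.2 CPM without passing the test (log2 −0.40 ± 0.10, adjusted p = 0.0568). FGF8 gave −0.25 (adjusted p = 0.300) and FGFR1 0.18 (0.437). No gene was called among 18 of the Notch pathway or 12 of the primitive streak, where MIXL1, an early streak factor, gave −0.30 (0.125), EOMES −0.10 (0.569) and GSC −0.11 (0.621). In a retinoic acid list 1 of 15 genes was called: STRA6, the receptor for the retinol carrier, was higher, at 4.2, 4.42 and 5.21 against 2.52, 1.84 and 1.54 CPM (log2 1.21 ± 0.21, adjusted p = 0.00831); leaving out wild-type replicate 2 or 3 ended that call.

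Genes of CHARGE syndrome and of hypogonadotropic hypogonadism, conditions that overlap clinically, gave 2 calls among 33 tested, both lower, with a list median of −0.18. Of all tested genes 1.04% were called lower. The first of the 2 was CHD7. The other was FEZF1, a zinc-finger repressor required for olfactory axons and mutated in Kallmann syndrome, which had 1.53, 1.21 and 1.41 CPM in wild-type and 0.260, 0.073 and 0 CPM in heterozygous libraries (log2 −3.48 ± 0.59, adjusted p = 0.0132). FEZF1 was called off by the rule for genes below 0.2 CPM in 1 genotype and at 1 CPM or more in the other, and its call was lost without wild-type replicate 3 or heterozygous replicate 2. In 15 of the 33 the heterozygous libraries all lay below the wild-type ones and in none above, against 11.1% of tested genes each way. Lists other than this and the FGF list also leaned lower. By the same measure 9 of 15 heart and pharyngeal arch genes lay below and 2 above. Of 30 sterol and fatty acid genes 11 lay below, and of 21 Nodal and Activin genes 7, with 0 above in both lists. Pluripotency and proliferation genes leaned higher, with 8 of 22 and 7 of 35 above and 2 below in each. FLRT3, an adhesion protein of FGF signalling and axon guidance, had 119, 106 and 110.5 against 70.6, 77.1 and 88.1 CPM; the groups did not overlap, but the adjusted p was 0.0663 (−0.51, interval −0.78 to −0.24). TUBB3, a neuronal tubulin, gave −0.74 (adjusted p = 0.0949). SEMA3A, SEMA3E and ANOS1, genes of axon guidance and olfactory development that are linked to these conditions, gave 0.09 (adjusted p = 0.776), −0.04 (0.920) and −0.27 (0.440).

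In axon guidance, 2 of 52 genes were called, both lower, against 1.04% of all tested genes called lower, with a median of 0.02. NRP1, a co-receptor for class 3 semaphorins and VEGF, had 14.2, 21.2 and 19.7 CPM in wild-type and 8.53, 9.76 and 9.45 CPM in heterozygous libraries (log2 −0.99 ± 0.20, adjusted p = 0.0289). SEMA3C, a secreted semaphorin, had 2.39, 2.69 and 2.82 against 0.749, 0.877 and 0.678 CPM (log2 −1.76 ± 0.40, adjusted p = 0.0447). Every heterozygous library was below every wild-type library for both, yet both calls were lost on leaving out 1 of several libraries (adjusted p up to 0.169 and 0.192). None of 15 heart and pharyngeal arch genes was called, although 12 of the 15 had negative fold changes and the median was −0.23. EYA1, a co-activator of pharyngeal arch development, had 5.93, 8.17 and 6.85 against 3.32, 3.33 and 4.71 CPM (log2 −0.89 ± 0.24, adjusted p = 0.0983). None of 11 mesoderm, 15 neural crest or 6 trophectoderm and amnion genes was called, with medians of −0.20, 0.06 and −0.17.

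In a neuroectoderm list 2 of 16 tested genes were called, both higher, against 0.82% of all tested genes, and the median was 0.15. Of the 16, 9 had positive fold changes. All heterozygous libraries lay above all wild-type ones in 4 and below them in 3, against 11.1% of tested genes each way. TUBB3, a member of this list that was not called, had the negative fold change given above. STMN2, a microtubule regulator of growing axons, had 8.37, 7.05 and 6.06 CPM in wild-type and 19.8, 17.5 and 22.2 CPM in heterozygous libraries, rose in every library (log2 1.46 ± 0.14, adjusted p = 6.81e-05) and reached 55.2, 46.5 and 46.5 CPM in homozygous libraries. OTX1, a forebrain transcription factor, went from 0.429, 0.394 and 0.415 to 1.14, 1.13 and 1.06 CPM (log2 1.42 ± 0.30, adjusted p = 0.0326), a call that was lost without any 1 of the 6 libraries compared. Outside the list, and chosen after the values were seen, ELAVL4, a neuronal RNA-binding protein, rose from 2.25, 2.20 and 1.66 to 4.72, 5.52 and 5.30 CPM (log2 1.33 ± 0.18, adjusted p = 0.00149), and NHLH2, a neuronal basic helix-loop-helix factor, from 0.429, 0.230 and 0.208 to 1.73, 1.43 and 1.61 CPM (log2 2.39 ± 0.36, adjusted p = 0.00323). STMN2, ELAVL4 and NHLH2 were stable calls. The list as a whole was uneven over the heterozygous libraries. Its mean log2(CPM + 0.5), relative to the mean of the wild-type libraries, was 0.31, 0.24 and −0.05 in heterozygous libraries. In wild-type libraries it was 0.08, 0.03 and −0.11, so that heterozygous replicate 3 lay inside the wild-type range.

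Pluripotency genes were spread over the heterozygous libraries unevenly. None of 22 tested was called, their median was 0.18, and 16 of the 22 had positive fold changes; all heterozygous libraries lay above all wild-type ones in 8 and below them in 2, against 11.1% of tested genes each way. The summed level of the 25 list genes was 6763, 6723 and 6718 CPM in wild-type and 6855, 6782 and 6391 CPM in heterozygous libraries. A score, the mean over the list of log2(CPM + 0.5) relative to the mean of the wild-type libraries, was 0.39, 0.41 and 0.05 in heterozygous and 0.13, −0.05 and −0.09 in wild-type libraries. Heterozygous replicate 3 thus lay inside the wild-type range, while the other two lay above it. In homozygous libraries the score was 0.11, 0.07 and −0.31, so that replicate 3 was the lowest in each genotype. SOX2, a factor of the undifferentiated state and of neural precursors, showed the same order, with 7.11, 4.07 and 3.36 CPM in wild-type and 19.1, 15.9 and 5.59 CPM in heterozygous libraries (log2 1.47 ± 0.52, adjusted p = 0.226). POU5F1 gave 1.19 (adjusted p = 0.158), with reads that retrocopies of the gene could share, and NANOG gave 0.35 (0.729). CDH1, the epithelial cadherin of undifferentiated cells, had 4.18, 0.787 and 0.913 against 12.1, 10.7 and 11.3 CPM (log2 2.46 ± 0.58, adjusted p = 0.0515) and was not called. The part of these differences between libraries in the calls was not tested; 215 of the 313 calls were also made without heterozygous replicate 3.

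The same library stood apart in proliferation. Of 35 proliferation genes 2 were called, both higher, against 0.82% of all tested genes called higher. Of the 35, 26 had positive fold changes and the median was 0.12. The list's score was 0.24, 0.21 and −0.16 in heterozygous and 0.05, −0.03 and −0.03 in wild-type libraries, so that heterozygous replicate 3 lay below every wild-type library and the other two above. Homozygous libraries scored 0.14, 0.20 and 0.04, with replicate 3 again the lowest. CCND1, the G1 cyclin, had 22.1, 20.4 and 22.7 CPM in wild-type and 31.1, 31.6 and 28.99 CPM in heterozygous libraries, all 3 higher (log2 0.49 ± 0.09, adjusted p = 0.0148). TOP2A, the topoisomerase of dividing cells, had 211, 196 and 182 against 257, 277 and 254 CPM (log2 0.42 ± 0.10, adjusted p = 0.0464). Both were lost when 1 of several libraries was left out (adjusted p up to 0.131 and 0.288), and the part of the library differences in them was not tested.

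Few members of the matrix, metabolic and stress lists were called. In an extracellular matrix list of 50, 4 were called, 2 higher and 2 lower, against 1.86% of all tested genes called in either direction. COL2A1, the main cartilage collagen, fell from 218, 234 and 241 to 149.6, 156 and 104 CPM (log2 −0.76 ± 0.13, adjusted p = 0.0111), and TNC, tenascin C, gave −0.50 ± 0.11, adjusted p = 0.0318. COL9A2, a minor cartilage collagen, gave 0.48 ± 0.09, adjusted p = 0.0197, and THBS2, a matrix glycoprotein that inhibits vessel growth, rose from 0.161, 0.197 and 0.166 to 0.814, 0.694 and 0.636 CPM (log2 2.01 ± 0.40, adjusted p = 0.0250). Of 35 hypoxia and glycolysis genes 2 were called, both lower, against 1.04% of all tested genes called lower. These were ADM, the vasodilator adrenomedullin, at 36.9, 34.8 and 27.8 against 55.7, 52.5 and 51.0 CPM (log2 −0.68 ± 0.12, adjusted p = 0.00884), and PDK1, the kinase that holds back pyruvate oxidation (−0.59 ± 0.11, adjusted p = 0.0112). TNFRSF10B, a death receptor (−0.46 ± 0.09, adjusted p = 0.0260), was the 1 called, and lower, of 31 p53 targets, and PEG10, a retrotransposon-derived gene expressed from the paternal copy (0.41 ± 0.08, adjusted p = 0.0260), the 1 called, and higher, of 26 imprinted genes. None was called among 30 sterol and fatty acid genes (median −0.13, 26 of 30 negative), 25 cadherin and transition genes, 23 unfolded protein response genes, 20 heat shock and immediate early genes, 33 DNA and histone methylation genes or 13 mitochondrially encoded genes. Of 38 chromatin remodellers CHD7 alone was called. Of the called genes of these lists ADM and CHD7 were stable, and the other calls were lost on leaving out at least 1 library (adjusted p up to 0.139 for THBS2 and 0.0635 for COL2A1).

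**Figure D3:**
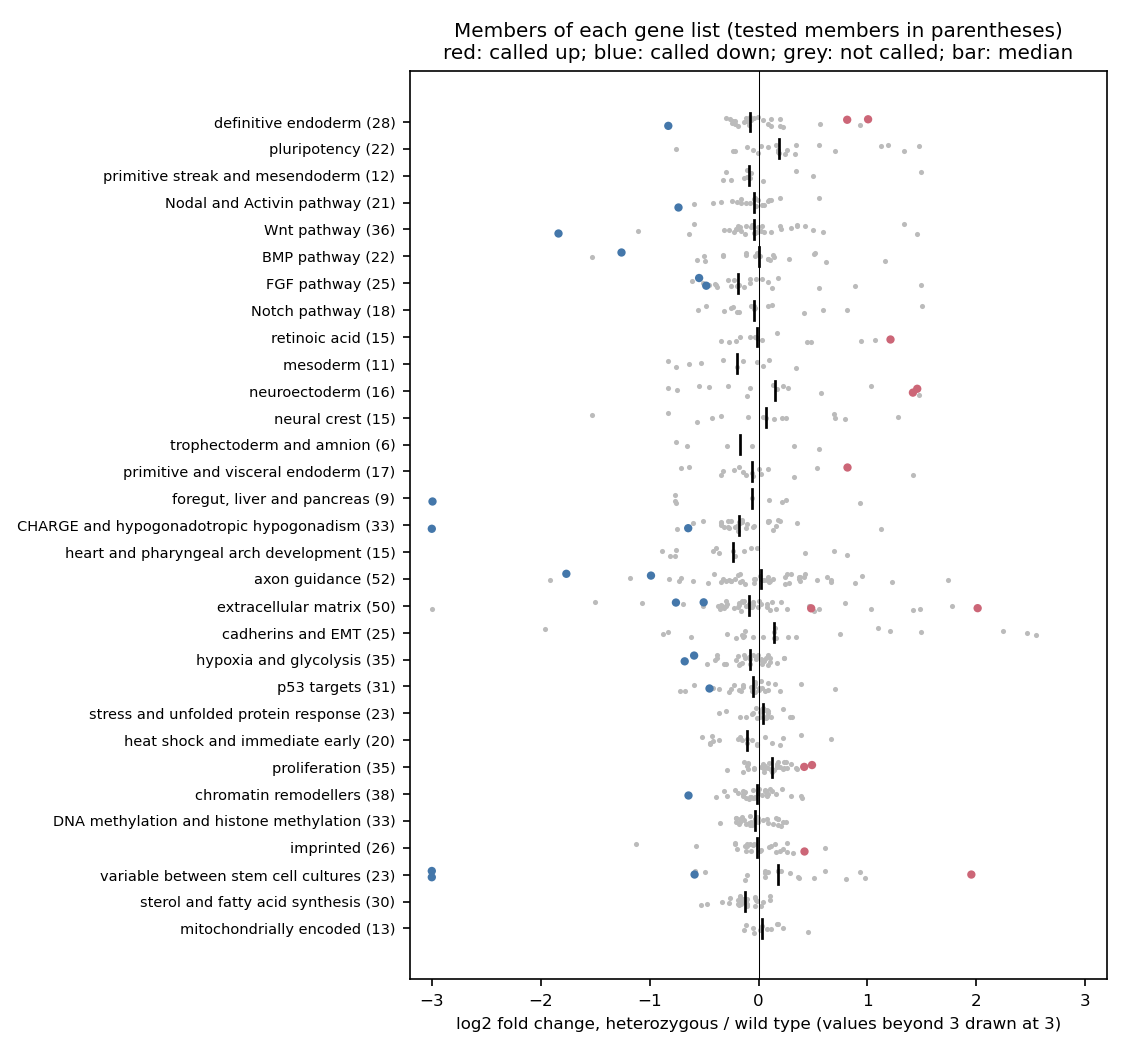
Every tested member of the 31 gene lists (points) with the list's median (bar), as log2 fold change of heterozygous over wild type on the horizontal axis; filled coloured points passed the test, and values beyond 3 are drawn at 3. List medians lie between −0.23 (heart and pharyngeal arch) and 0.18 (pluripotency), close to the 0.00 of all genes, and no list has more than 4 called members.

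The furthest changes were genes that were silent in 1 genotype. By the rule of below 0.2 CPM in 1 and at least 1 CPM in the other, 13 called genes were off and 5 on in heterozygous cells. Of these 18 genes 12 have an entry among RefSeq promoters (GRCh38.p14). The promoters of ZNF677, ZNF229 and TRIM61, which had no count in any heterozygous library, and of ECHDC3, a gene outside the 18 with a low wild-type level and a large rise, are printed to show how many CG dinucleotides, the bases on which DNA methylation acts, lie at the start of genes with large changes. Each runs 5′ to 3′ on the strand of its gene, from 250 bases before the start to 50 after it, and capitals mark every CG (a palindrome, hence the same on both strands).
ZNF677: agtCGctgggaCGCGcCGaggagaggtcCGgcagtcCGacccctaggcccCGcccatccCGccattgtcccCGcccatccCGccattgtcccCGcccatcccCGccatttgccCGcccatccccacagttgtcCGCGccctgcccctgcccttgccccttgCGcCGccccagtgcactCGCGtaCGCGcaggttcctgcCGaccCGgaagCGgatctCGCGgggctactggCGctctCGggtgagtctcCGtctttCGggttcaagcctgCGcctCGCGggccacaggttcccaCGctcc
ZNF229: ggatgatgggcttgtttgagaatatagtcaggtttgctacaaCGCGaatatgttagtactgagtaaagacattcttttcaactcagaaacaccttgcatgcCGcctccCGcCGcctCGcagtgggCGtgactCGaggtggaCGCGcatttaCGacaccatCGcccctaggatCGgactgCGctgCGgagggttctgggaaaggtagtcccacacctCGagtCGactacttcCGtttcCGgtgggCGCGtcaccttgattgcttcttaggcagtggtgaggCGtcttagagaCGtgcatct
TRIM61: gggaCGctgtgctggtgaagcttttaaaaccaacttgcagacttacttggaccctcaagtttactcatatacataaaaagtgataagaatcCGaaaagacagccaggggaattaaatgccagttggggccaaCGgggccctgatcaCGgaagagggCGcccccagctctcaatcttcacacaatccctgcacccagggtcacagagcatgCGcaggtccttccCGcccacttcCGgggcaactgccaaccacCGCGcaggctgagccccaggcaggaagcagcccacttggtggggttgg
ECHDC3: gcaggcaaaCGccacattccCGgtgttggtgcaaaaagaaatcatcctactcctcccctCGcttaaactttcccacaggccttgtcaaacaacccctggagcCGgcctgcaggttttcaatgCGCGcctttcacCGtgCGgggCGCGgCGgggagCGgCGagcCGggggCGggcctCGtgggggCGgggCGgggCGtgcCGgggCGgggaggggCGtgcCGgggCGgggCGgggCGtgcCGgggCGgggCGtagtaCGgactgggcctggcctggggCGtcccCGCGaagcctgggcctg
The ZNF677 promoter (chr19:53254774-53255073, minus strand) holds 34 CG, that of ZNF229 (chr19:44448423-44448722, minus strand) 23, that of TRIM61 (chr4:164977608-164977907, minus strand) 10 and that of ECHDC3 (chr10:11742132-11742431, plus strand) 33. The median over 11756 tested genes with an entry was 26 CG (quartiles 17 and 34), and 99.6% of those promoters hold at least 1. The 10 off genes with an entry had a median of 18, the 116 genes called lower a median of 16.5 and the 95 called higher a median of 19. No methylation was measured.

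ZNF677, a KRAB zinc-finger gene of the chromosome 19 clusters (chromosome 19, 53235381 to 53254898, minus strand), had 10.2, 8.53 and 7.97 CPM in the wild-type libraries and 0 counts in all 3 heterozygous libraries. Against 831 counts in the wild type, a floor of 3 counts over the 3 heterozygous libraries put the level at least 246-fold lower (adjusted p = 8.42e-07). Homozygous libraries had 11.8, 8.44 and 9.67 CPM, close to the wild type (0.15, adjusted p = 0.648), and differed from the heterozygous ones (adjusted p = 5.71e-07). ZNF826P, a zinc-finger pseudogene of the same chromosome (chromosome 19, 20340269 to 20424969, minus strand), had 38.6, 36.7 and 33.5 CPM in wild-type libraries, 0 counts in heterozygous libraries (at least 998-fold lower, adjusted p = 4.08e-08) and 28.7, 20.6 and 25.03 CPM in homozygous libraries. For both genes silence was thus seen in heterozygous and not in homozygous libraries, and the difference between those 2 genotypes passed the test for ZNF826P as well (adjusted p = 9.91e-08).

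Most of the other off genes were low in both mutant genotypes. ZNF229, a further chromosome 19 zinc-finger gene, had 3.75, 3.90 and 4.32 CPM in wild-type libraries and 0 counts in every heterozygous and homozygous library (at least 108-fold lower in heterozygous cells, adjusted p = 4.08e-05). TRIM61, a member of the tripartite motif family, had 2.65, 3.90 and 3.78 CPM in wild-type and 0 counts in heterozygous libraries (at least 91.6-fold, adjusted p = 1.07e-05), with 0.334, 0.397 and 0.499 CPM in homozygous ones. TSPYL5, a nucleosome assembly protein-like gene, had 1.80, 2.33 and 2.57 CPM against 0 counts (at least 59.3-fold, adjusted p = 0.000288) and was also at 0 in homozygous libraries. ZNF680 (from 1.88, 2.07 and 2.53 CPM, at least 57.5-fold) and MAP10, a microtubule-associated protein (from 1.48, 1.48 and 1.54 CPM, at least 40.6-fold), were at 0 counts in heterozygous libraries too. ZSCAN1 kept 0, 0.037 and 0 CPM of 1.26, 1.28 and 1.29 and ZNF772 0.163, 0.146 and 0.085 of 1.13, 1.02 and 1.16, while homozygous ZNF772 was above the wild type, at 2.26, 2.12 and 2.99 CPM (1.15, adjusted p = 0.0142). The remaining off genes were NKX6-1, FEZF1, PCDHA6 and D21S2088E, a non-coding gene that fell from 2.39, 2.59 and 1.83 to 0.195, 0.292 and 0.085 CPM (log2 −3.52 ± 0.44, adjusted p = 0.000672). All off calls but that of FEZF1 were stable.

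**Figure D4:**
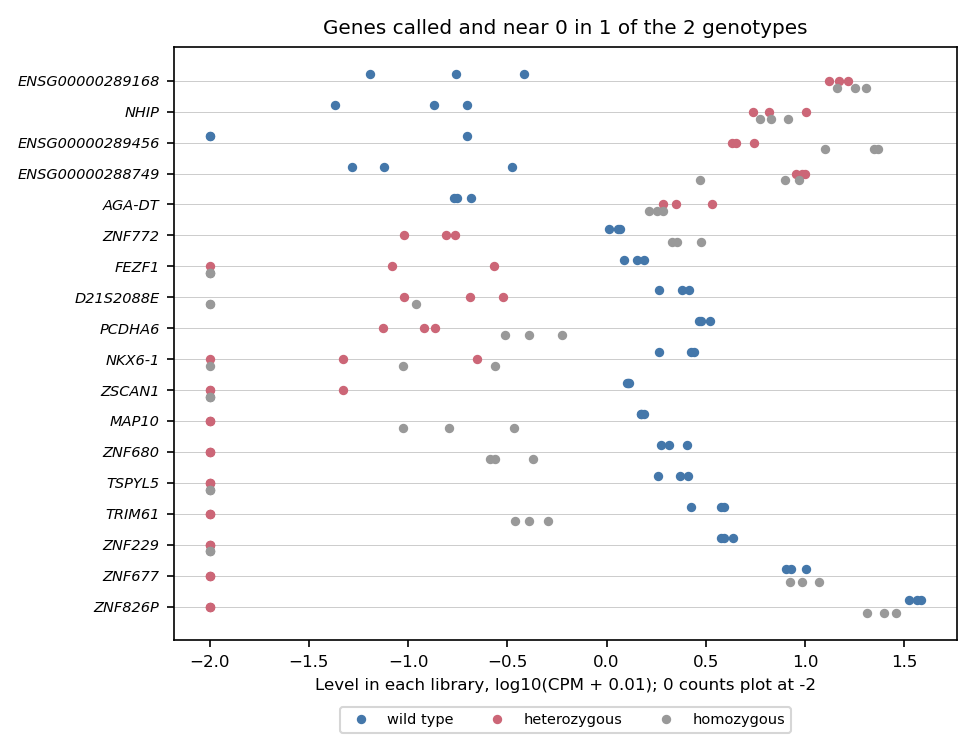
Levels of the 18 genes that were off or on in heterozygous libraries, per library, on a log10 scale of CPM + 0.01 (horizontal axis), coloured by genotype. The 13 off genes have heterozygous points at or near the left edge, where a library with no count lies, and homozygous points of ZNF677, ZNF826P and ZNF772 lie nearer to the wild type than to the heterozygous ones.

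Zinc-finger genes as a family were then counted, a group chosen after the calls were seen. Of 499 tested C2H2 zinc-finger genes 27 were called (5.41%, against 1.86% of all genes), 8 higher and 19 lower, and 18 of the 27 were stable calls. On chromosome 19, where most KRAB zinc-finger genes sit in tandem clusters, 17 of 230 were called, 15 of them lower; elsewhere 10 of 269 were, 6 higher and 4 lower. ZNF737 fell from 17.0, 20.2 and 19.1 to 3.48, 4.2 and 3.90 CPM (log2 −2.28 ± 0.16, adjusted p = 5.91e-06; homozygous −0.79), and ZNF69 from 16.4, 17.7 and 17.0 to 3.26, 3.54 and 3.86 CPM (log2 −2.26 ± 0.15, adjusted p = 4.46e-06; homozygous −0.56). ZNF595 on chromosome 4 rose from 0.590, 0.820 and 0.664 to 5.14, 5.59 and 5.59 CPM (log2 2.97 ± 0.19, adjusted p = 3.48e-06; homozygous 2.90) and ZNF354C on chromosome 5 from 2.25, 2.53 and 2.95 to 7.65, 9.17 and 13.1 CPM (log2 1.95 ± 0.22, adjusted p = 0.000294). Paralogous zinc-finger genes share long stretches of sequence, so reads of 1 may have been counted for another.

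Some called genes lay next to each other. Among the 298 with a chromosome position, 53 sat in 22 runs of neighbouring tested genes called in the same direction, 15 runs lower and 7 higher, and 3 neighbouring pairs were called in opposite directions; the runs include tandem paralogues and overlapping transcripts, and the number was not tested. The run with the most genes (chr19:20220597-20661596) held 5, ZNF826P, ZNF737, ZNF626 and a pair without names. ZNF626 had 8.13, 9.22 and 7.81 CPM in wild-type, 2.995, 3.76 and 4.37 in heterozygous and 0 CPM in all 3 homozygous libraries, so that the order among genotypes differed from gene to gene within the run. A run on chromosome 21 (chr21:44485577-44525952) held LINC02575, TSPEAR-AS1, TSPEAR-AS2 and an unnamed transcript, all non-coding. TSPEAR-AS1 fell from 26.7, 27.3 and 26.8 to 6.19, 6.58 and 6.32 CPM (log2 −2.08 ± 0.16, adjusted p = 1.07e-05) with 21.6, 15.2 and 25.3 CPM in homozygous libraries, which differed from the heterozygous ones (−1.69, adjusted p = 9.25e-05). LINC02575 fell from 88.2, 109 and 114 to 21.9, 22.5 and 24.0 CPM (−2.19; homozygous −0.82) and TSPEAR-AS2 from 26.7, 32.4 and 30.7 to 7.75, 7.05 and 6.53 CPM (−2.07; homozygous −0.20). Overlapping and antisense transcripts cannot be separated where the strand setting of the counting is not known.

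The rises with the largest folds were also mostly of genes with little expression in the wild type, and many were non-coding. NHIP, a long non-coding transcript, went from 0.188, 0.033 and 0.125 to 5.47, 6.61 and 10.1 CPM (log2 5.89 ± 0.39, adjusted p = 4.46e-06); with AGA-DT, a divergent transcript that went from 0.161, 0.197 and 0.166 to 1.92, 2.23 and 3.39 CPM (log2 3.80 ± 0.34, adjusted p = 3.77e-05), and 3 transcripts without a symbol it made up the 5 on genes. NECTIN3-AS1, antisense to the adhesion gene NECTIN3, had 0.134, 0.262 and 0.374 CPM in wild-type, 6.22, 6.14 and 6.02 in heterozygous and 45.7, 47.5 and 51.3 in homozygous libraries. It formed 3 separate levels with narrow spread, 4.64 ± 0.22, adjusted p = 2.23e-07 for heterozygous over wild type and −2.98 (adjusted p = 1.72e-07) for heterozygous over homozygous. YPEL3-DT, divergent to YPEL3 on chromosome 16, had 1.48, 0.951 and 1.41 against 10.6, 9.46 and 9.66 CPM (log2 2.95 ± 0.17, adjusted p = 1.44e-06) and 38.2, 44.0 and 34.3 in homozygous libraries. LINC00836, in contrast, had 1.80, 1.31 and 2.49 CPM in wild-type and 14.0, 14.0 and 19.7 in heterozygous libraries (log2 3.10 ± 0.32, adjusted p = 0.000148) but 1.67, 0.894 and 2.89 in homozygous ones, which differed from the heterozygous (adjusted p = 0.000214) and not detectably from the wild type (−0.06, adjusted p = 0.939).

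Among protein-coding rises, ECHDC3, an enoyl-CoA hydratase domain protein of mitochondria (chromosome 10, 11742366 to 11764070, plus strand), went from 0.617, 0.295 and 0.166 to 9.90, 9.79 and 7.33 CPM (log2 4.54 ± 0.31, adjusted p = 4.62e-06; homozygous 3.40). BEX5, a small brain-expressed X-linked protein, went from 0.483, 0.853 and 0.872 to 6.64, 6.76 and 8.35 CPM (log2 3.32 ± 0.26, adjusted p = 1.07e-05), and GPR151, an orphan receptor, from 2.71, 1.77 and 1.78 to 13.1, 11.1 and 8.69 CPM (log2 2.37 ± 0.23, adjusted p = 7.04e-05). HPDL, a dioxygenase-like mitochondrial protein, rose from 1.37, 1.25 and 0.996 to 6.97, 5.74 and 3.73 CPM (log2 2.17 ± 0.33, adjusted p = 0.00328). GRPR, the receptor for gastrin-releasing peptide, rose from 3.51, 2.03 and 2.28 to 7.72, 8.99 and 8.48 CPM (log2 1.66 ± 0.19, adjusted p = 0.000378) and further in homozygous libraries (38.4, 28.5 and 34.8 CPM), while its ligand GRP, chosen after its values were seen, fell from 7.91, 11.7 and 11.96 to 4.75, 4.28 and 5.17 CPM (log2 −1.15 ± 0.18, adjusted p = 0.00373). All of these were stable calls.

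Falls of protein-coding genes with at least 5 CPM in the wild type included PNPLA4, a lipase with retinyl ester activity encoded on the X chromosome, which dropped from 15.7, 13.8 and 14.9 to 1.302, 0.987 and 1.10 CPM (log2 −3.70 ± 0.23, adjusted p = 2.14e-06; homozygous −3.46). NAT8L, the enzyme that makes N-acetylaspartate, dropped from 21.8, 20.0 and 23 to 6.19, 7.01 and 5.64 CPM (log2 −1.78 ± 0.13, adjusted p = 6.76e-06), and homozygous libraries gave nearly the same fold (−1.79). DACH1, a nuclear co-repressor of the retinal determination pathway, had 4.40, 6.46 and 6.19 against 0.879, 0.731 and 1.99 CPM (log2 −2.26 ± 0.49, adjusted p = 0.0364), and its call was lost on leaving out 1 of several libraries (adjusted p up to 0.207). THUMPD3, a tRNA methyltransferase chosen after its values were seen, had 44.3, 46.3 and 44.8 CPM in wild-type, 18.7, 20.8 and 21.9 in heterozygous and 56.1, 44.8 and 41.7 in homozygous libraries. Its heterozygous libraries alone were low (log2 −1.14 ± 0.11, adjusted p = 0.000108; −1.21 against homozygous, adjusted p = 7.75e-05). LRRC61, chosen the same way, moved in opposite directions in the 2 mutant genotypes, with 0.831, 0.853 and 0.872 CPM in wild-type, 0, 0.073 and 0 in heterozygous and 6.77, 8.01 and 5.53 in homozygous libraries (adjusted p = 0.000452 for heterozygous and 2.66e-05 for homozygous against wild type). The homozygous comparison shares the wild-type libraries with the heterozygous one, so the pair of fold changes of a gene is not independent; of all tested genes, 7.68% were called between homozygous and wild type and 2.21% between heterozygous and homozygous.

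Clustered protocadherins are cell surface proteins encoded in tandem on chromosome 5, where each neuron expresses a few members, each from its own promoter. This family was also chosen after the calls were seen. Of 31 tested, 8 were called (25.8% against 1.86% of all genes), 7 lower and 1 higher, 5 of them stable, with a family median of −0.34. PCDHA6 went from 3.33, 2.98 and 2.91 to 0.065, 0.110 and 0.127 CPM (log2 −4.90 ± 0.35, adjusted p = 5.26e-06), PCDHA10 from 6.68, 6.49 and 6.23 to 1.17, 1.17 and 1.27 CPM (log2 −2.42 ± 0.18, adjusted p = 6.76e-06) and PCDHA11, the next variable exon of the alpha cluster, the other way, from 0.912, 0.459 and 0.747 to 6.97, 9.28 and 9.66 CPM (log2 3.59 ± 0.26, adjusted p = 6.76e-06). Neighbouring first exons of the cluster thus moved in opposite directions. In the beta cluster PCDHB5 fell from 3.33, 3.44 and 3.03 to 0.488, 0.146 and 0.085 CPM (log2 −3.67 ± 0.41, adjusted p = 0.000265) and PCDHB16 from 7.88, 7.54 and 8.55 to 2.64, 2.52 and 2.20 CPM (log2 −1.70 ± 0.18, adjusted p = 0.000232). In the gamma cluster PCDHGB4 had 3.11, 3.12 and 3.36 against 1.24, 0.877 and 1.82 CPM (log2 −1.29 ± 0.28, adjusted p = 0.0386) and PCDHGA10 18.9, 20.3 and 19.3 against 9.90, 12.9 and 12.8 CPM (log2 −0.72 ± 0.15, adjusted p = 0.0351); the gamma calls were lost on leaving out 1 of several libraries. Homozygous PCDHA10 gave −0.56 (adjusted p = 0.0539), apart from the heterozygous value (−1.87 for heterozygous over homozygous, adjusted p = 0.000103). The alpha genes share their last exons, as do the gamma genes, so only reads in variable exons tell the members apart.

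**Figure D5:**
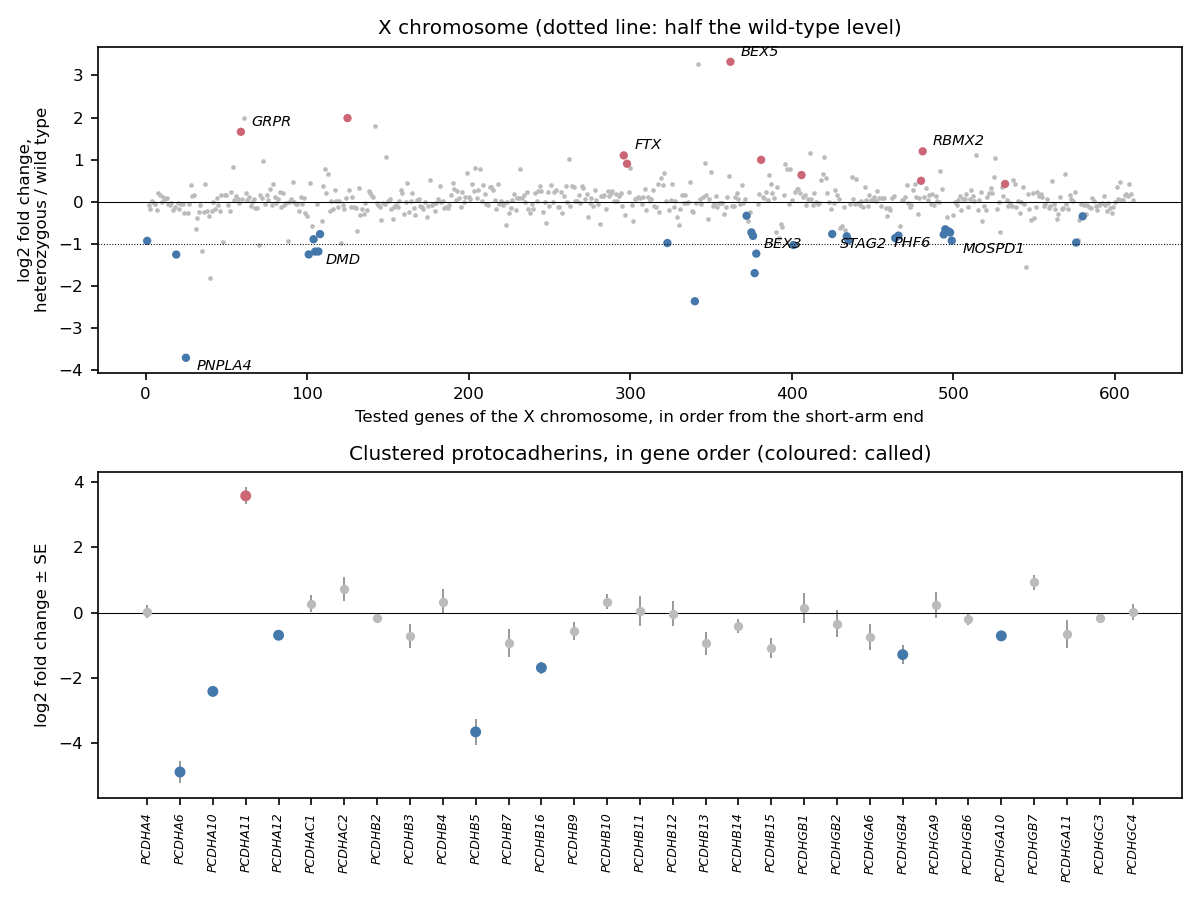
Top, log2 fold change of heterozygous over wild type for 611 tested X-linked genes in chromosome order, with called genes in red (10 higher) and blue (28 lower) and a dotted line at −1. Bottom, the same value with its SE for 31 clustered protocadherins in cluster order; called members are coloured, with PCDHA11 highest at 3.59 and PCDHA6 lowest at −4.90.

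The X chromosome carried more calls than its share of genes. Of 611 tested X-linked genes, a group chosen after the calls were seen, 38 were called (6.22% against 1.86%), 10 higher and 28 lower, and 19 were stable. The median of all X-linked genes was 0.02, so the chromosome as a whole did not shift. The 28 lower genes had a median of −0.90, and 17 of them lay between −1 and −0.5. Over all 175 genes called lower the median was −1.01, and 151 of the 313 calls were below 1 in size. The 175 and the 313 include the X-linked genes, and the 313 also include rises. Whether falls of this size are particular to the X chromosome was not tested. BEX3, a small adaptor of neurotrophin receptor signalling, had 1014, 998 and 999 CPM in wild-type and 585, 531 and 605 CPM in heterozygous libraries (log2 −0.81 ± 0.09, adjusted p = 0.000269). XIAP, an inhibitor of caspases, had 171, 182 and 173 against 86.8, 90.7 and 113 CPM (−0.86), STAG2, a cohesin subunit, 248, 252 and 227 against 119, 138 and 161 (−0.80), and DMD, the dystrophin gene, 33.6, 30.1 and 28.6 against 11.9, 14.5 and 14.5 (−1.18). MOSPD1, PABIR2 and PABIR3, neighbours in a run of 3 (X:134769566-134915267), gave −0.92, −0.70 and −0.73. In each of these genes the heterozygous libraries all lay below the wild type, with homozygous log2 fold changes of −0.83 for BEX3, −0.93 for XIAP, −1.19 for STAG2 and −1.79 for DMD.

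Rises on the X chromosome included FTX, a non-coding gene of the X-inactivation centre, from 52.5, 55.0 and 51.5 to 97.5, 105 and 139 CPM (log2 1.10 ± 0.13, adjusted p = 0.000325), with heterozygous replicate 3 the highest. RBMX2, a splicing factor, went from 23.6, 24.0 and 24.1 to 54.6, 49.0 and 61.3 CPM (log2 1.20 ± 0.10, adjusted p = 3.69e-05), and MAOA, a monoamine oxidase, from 0.590, 0.426 and 0.415 to 2.15, 1.46 and 2.20 CPM (log2 1.99 ± 0.32, adjusted p = 0.00584). FTX, RBMX2 and MAOA were stable calls. XACT, another X-linked non-coding gene, chosen after its values were seen, was called lower (log2 −0.76, adjusted p = 0.0118). Its mean was 34.0 CPM in wild-type and 20.0 CPM in heterozygous libraries. That call was lost without wild-type replicate 2 or 3 or heterozygous replicate 1. In a list of genes known to vary between human stem cell cultures, 4 of 23 tested were called, against 1.86% of all tested genes, 1 higher (ZNF354C) and 3 lower (TSPYL5, PCDHB5 and IRX2), and the median was 0.18. IRX2, an Iroquois homeobox gene, had 22.3, 28.9 and 28.9 CPM in wild-type and 17.8, 17.2 and 18.2 CPM in heterozygous libraries (log2 −0.59 ± 0.12, adjusted p = 0.0318), a call lost on leaving out 1 of several libraries. The part of culture or clone in the calls on the X chromosome, among protocadherins and among zinc-finger genes was not tested.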

How the data were processed

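Total RNA from 9 libraries of H9-derived definitive endoderm (3 wild-type, 3 heterozygous and 3 homozygous for a CHD7 deletion) was sequenced on an Illumina NovaSeq instrument, per the labels' protocols. The authors deposited whole-number read counts per gene for each library, not normalized; the values were checked to be whole. The submitters' processing notes name FastQC, Trimmomatic, HISAT2, SAMtools, HTSeq and the hg38 build, without versions. They omit tool versions, annotation release and strand setting, not given in the sources used here. Every sample column matched 1 sample's labels.

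The table holds 26240 gene rows, of which 264 are at 0 in all libraries. Symbols were found for 26177 and GRCh38 positions (GENCODE 29) for 25209. The filter on low counts in edgeR 4.0.16 (R 4.3.3) kept 16837 genes and removed 9403. Counts were scaled by TMM factors and fitted with the quasi-likelihood model over all 9 libraries with genotype as the only term; heterozygous against wild type was tested, with Benjamini-Hochberg adjustment over all tested genes and a threshold of 0.05. The standard error is the fold change divided by the square root of F. CPM are counts relative to the TMM-scaled library size, which differ in precision by depth, since the totals ranged from 11854173 (homozygous) to 37519729. For a gene without a count in a genotype the fold is a bound against 3 counts over that genotype. Intervals cover the spread between libraries; bounds cover counting error only. The code was tested on simulated data.

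The genes and lists were chosen with earlier results of these data known. Named genes were CHD7; of the called genes whose libraries did not overlap and whose higher genotype reached 5 CPM, the 12 that rose most and the 12 that fell most, leaving out pseudogenes, ribosomal and mitochondrial genes; up to 4 called genes of each list; a fixed set of endoderm, pluripotency and CHARGE genes; and genes below 0.2 CPM in 1 genotype and at least 1 CPM in the other. Some genes that the rule names are not reported here. Gene families, the heterozygous against homozygous test and the genes said to be chosen later were added after the values were seen. The uncalled list members SPRY2, TUBB3, EYA1 and CDH1 fall under none of these rules and were likewise picked with their values known. Alternatives were RLE and upper-quartile scaling, other filters, DESeq2 1.42.0, limma 3.58.1 (voom), the 6 libraries alone, a replicate block, a test against 1.5-fold, and each library left out.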

Additional observations from a re-analysis of the deposited data

How the results depend on the processing

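Of 16837 genes, 313 were called (138 higher, 175 lower). RLE scaling gave 319, upper-quartile scaling 317, no filter 409, a filter of 1 CPM in 3 libraries 293 and limma-voom 334, all within 1.5 times. DESeq2 called 560 (284 higher, 276 lower) and shared 302 with the 313. The 6 libraries fitted alone gave 604 (290 higher, 314 lower), sharing 309. The test against a 1.5-fold change gave 89 (40 higher, 49 lower), and in it the CHD7 change of −0.65 had an adjusted p of 1. No gene was called in the opposite direction under any of these. Leaving out 1 library gave 130 to 624 calls (53 to 308 higher, 77 to 316 lower), with 359 without wild-type replicate 1, 135 without wild-type 2, 130 without wild-type 3, 173, 147 and 281 without heterozygous 1, 2 and 3, and 262, 405 and 624 without homozygous 1, 2 and 3. CHD7 remained called in each of those 9 fits, with log2 fold changes of −0.68 to −0.57. Deviations of same-numbered heterozygous and wild-type libraries correlated at 0.11, −0.06 and 0.01, and those of differently numbered ones at −0.14 to 0.15. With 3 libraries a genotype these values cannot decide whether replicate numbers pair the samples. With a replicate block 492 genes were called, 264 higher and 228 lower, sharing 304. The share of higher calls was 44.1%, 53.7% with the block and 56.0% without wild-type replicate 1.

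Of 149 named genes 130 were called. None reversed; 73 lost their call against 1.5-fold, 1 under DESeq2 and 2 under limma-voom. With 3 libraries a genotype, small changes are at the limit of the test, and clone, culture and genotype cannot be told apart.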

Other observations

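The genes in this section were chosen after their values were seen, and no explanation of them was tested. They are single genes and stand for no group. NPPB, the natriuretic peptide B gene, had 122, 172 and 193 CPM in wild-type and 84.3, 78.3 and 55.4 CPM in heterozygous libraries (log2 −1.16 ± 0.26, adjusted p = 0.0405). ANKRD1, a muscle ankyrin repeat protein and target of YAP, had 58.5, 75.1 and 80.6 against 34.1, 33.6 and 25.6 CPM (log2 −1.20 ± 0.21, adjusted p = 0.00868), and TAGLN, an actin-binding protein of smooth muscle, 420.2, 661 and 719 against 369, 336 and 308 CPM (log2 −0.83 ± 0.18, adjusted p = 0.0326). In NPPB and TAGLN wild-type replicate 1 was the lowest of its group and nearest to the heterozygous libraries. When each library was left out in turn, the adjusted p reached 0.196 for NPPB, 0.0534 for ANKRD1 and 0.178 for TAGLN.

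TENM2, a teneurin, had 11.7, 14.9 and 14.4 CPM in wild-type and 5.79, 7.12 and 5.81 CPM in heterozygous libraries (log2 −1.13 ± 0.15, adjusted p = 0.00148), a stable call. ADGRL3, a latrophilin, which binds teneurins and FLRT proteins, had 19.6, 28.1 and 30.9 against 11.2, 12.3 and 12.3 CPM (log2 −1.13 ± 0.21, adjusted p = 0.0148), lost without 1 of several libraries. The non-clustered protocadherin PCDH7 gave −0.81 ± 0.15, adjusted p = 0.0135, and PRTG, an immunoglobulin receptor of the early embryo, −1.03 ± 0.20, adjusted p = 0.0223; these calls too were lost on leaving out 1 of several libraries (adjusted p up to 0.0691 and 0.121).

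The next 5 genes, which act in mitosis, were picked from the called genes, and mitotic genes were not counted as a group. The proliferation list of 35 had 2 calls, both higher, where 0.82% of all tested genes were called higher. The 5 were DLGAP5 (0.51 ± 0.12, adjusted p = 0.0447), CEP55 (0.51 ± 0.10, adjusted p = 0.0257), KIF18A (0.58 ± 0.12, adjusted p = 0.0287), NUF2 (0.46 ± 0.10, adjusted p = 0.0377) and NEK2 (0.46 ± 0.10, adjusted p = 0.0374). All of these calls were lost when 1 of several libraries was left out, with the highest adjusted p for each between 0.170 and 0.262, and heterozygous replicate 3 had a lower proliferation score than the wild type.

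HLA-DQB1, a class II gene next to HLA-DQA1 on chromosome 6, had 40.9, 34.8 and 35.9 CPM in wild-type, 86.0, 80.8 and 72.0 in heterozygous and 50.6, 50.1 and 42.3 in homozygous libraries (log2 1.10 ± 0.10, adjusted p = 6.82e-05; 0.74 over homozygous, adjusted p = 0.00219), and HLA-DQA1 gave 0.60 ± 0.13, adjusted p = 0.0425, a call lost without any 1 of the 6 libraries compared (up to 0.202). PHC1, a subunit of Polycomb repressive complex 1, was higher, at 62.2, 68.9 and 48.2 against 43.3, 30.2 and 34.7 CPM (log2 0.73 ± 0.16, adjusted p = 0.0397), and PHC2, its paralogue, lower, at 49.1, 47.4 and 44.0 against 65.0, 77.2 and 80.0 CPM (log2 −0.66 ± 0.13, adjusted p = 0.0216). Both calls were lost on leaving out 1 of several libraries (adjusted p up to 0.213 and 0.126). S100A6, a calcium-binding protein, had 0.402, 0.426 and 0.291 against 2.64, 2.16 and 1.44 CPM (log2 2.45 ± 0.39, adjusted p = 0.00445).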
